A study of Mus musculus with 3 samples.

Results

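The nuclear-encoded respiratory chain genes were taken as every gene whose symbol begins with Nduf, Sdh, Uqcr, Cox4i, Cox5, Cox6, Cox7, Cox8 or Atp5, without the genes of the mitochondrial genome. The rule found 98 of the 32285 genes in the tables. It used names and no measured value. By role, 45 of the genes belong to complex I (7 core subunits, 29 accessory subunits, 8 assembly factors and the entry Ndufb1-ps), 8 to complex II, 8 to complex III, 20 to complex IV and 17 to complex V. Ndufa4 and Ndufa4l2 carry a complex I name but are counted under complex IV, where the Ndufa4 protein is now placed.

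The respiratory chain sits in the inner mitochondrial membrane. Complex I takes electrons from NADH and complex II from succinate, complex III passes them to cytochrome c, and complex IV hands them to oxygen, while complexes I, III and IV pump protons that drive ATP synthesis by complex V. Most subunits are made from nuclear genes and imported, and a small core is made inside the mitochondrion, so both genomes have to be read together. Among leukocytes, mature neutrophils are known for few mitochondria and a reliance on glycolysis, whereas activated lymphocytes and macrophages adjust respiration with their state.

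Immune cells of mice with a tissue labelled as non-small cell lung cancer were profiled after drug treatment by droplet single-cell RNA sequencing with 3′ chemistry. There were 3 libraries, 1 for each of the groups that the labels call PBS, PD-L1 and AI-Exo. The labels do not spell these names out, and strain, age, dose, time and the number of animals behind a library are not stated in the labels. With 1 library per group, every difference below compares libraries and not conditions, no p-value is given, and each interval is a 95% exact interval that covers counting error only. Both contrasts with PBS share the 1 PBS library.

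Barcodes with at least 500 UMIs (unique molecular identifiers, 1 for each captured transcript), at least 200 genes and at most 20% mitochondrial UMIs were kept. This left 9359 PBS, 9697 PD-L1 and 10457 AI-Exo barcodes with medians of 4380, 3948 and 4425 UMIs. Between 20.5% and 23% of the barcodes of a library matched no class or more than 1 class and were left out. The libraries shared 23 to 33 barcodes in each pair. Cell classes were gated by marker genes and are called "-like". Among the kept barcodes, 47 were tumour-like and 5 epithelial-like, against 4793 neutrophil-like, 5173 T cell-like and 5651 B cell-like. The immature T-lineage-like class, with Rag1, Dntt and Arpp21 among its leading genes, had 613 PBS and 595 PD-L1 barcodes and 0 of 10457 in the AI-Exo library. With 3 counts taken as the limit for a count of 0, and no exact interval, this allows a share of up to 0.0287%.

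Levels are given as UMIs of a gene per 1000000 UMIs of the class (CPM). Because 3′ UMIs count transcripts and not fragments, levels of different genes are not divided by length. The genes with most UMIs in each complex, summed over the 11 classes compared here, were Cox4i1 and Cox8a in complex IV, Atp5l and Atp5h in complex V, Uqcrh and Uqcrb in complex III, Ndufb1-ps and Ndufb11 in complex I, and Sdhb and Sdhd in complex II. Cox4i1, a subunit of cytochrome c oxidase, stood at 714.2 CPM in the PBS library, 612.2 in the PD-L1 library and 656.7 in the AI-Exo library. Sdhb, the iron-sulfur subunit of succinate dehydrogenase, stood at 78.6, 78.4 and 72 CPM in the same order. The 12 assembly factors ran from Ndufaf1, at 5.82, 6.58 and 6.46 CPM, to Sdhaf1, at 41.6, 39.7 and 39.3.

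Among classes with at least 50 barcodes in a library, the summed level of the 98 genes was lowest in neutrophil-like cells in every library. In the PBS library the sum was 5467.0 CPM (95% interval 5398.7 to 5536.0) in neutrophil-like cells, and the next lowest class, B cell-like, had 10708.1. In the PD-L1 library it was 4923.1 CPM (4870.7 to 4975.8), followed by 9590.8 in nonclassical monocyte-like cells. In the AI-Exo library it was 6970.2 CPM (6910.5 to 7030.2), followed by 10487.1 in B cell-like cells. Against the median class of its library, the neutrophil-like level was 0.354 of it for PBS cells, 0.325 for PD-L1 cells and 0.44 for AI-Exo cells, over 15, 15 and 14 classes. These include T cell-like cells and also their CD4, CD8 and regulatory subsets, so some barcodes entered repeatedly. The sets differ, with cDC2-like cells only in PBS, endothelial-like only in PD-L1 and gamma-delta T cell-like only in AI-Exo. Among classes with at least 50 barcodes, the highest was immature T-lineage-like in PBS (19725.7 CPM) and PD-L1 (23819.3). In AI-Exo, where no immature T-lineage-like barcode was found, it was classical monocyte-like (18380.1). Plasma cell-like cells, with 33 PBS, 11 PD-L1 and 19 AI-Exo barcodes, fell under this limit. Their levels were 20277.7, 21679.8 and 19567.6 CPM, above these highest classes in PBS and AI-Exo. The top rank of immature T-lineage-like cells holds for the summed level. By the median share of the UMIs of a barcode they had 1.47% in PBS and 1.55% in PD-L1, under the 1.77% and 1.74% of cDC1-like cells. Immature T-lineage-like barcodes with fewer than 2 dividing-cell markers held 14486.6 CPM in PBS and 13177.9 in PD-L1.

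Between these ends the PBS classes ran from B cell-like (10708.1 CPM), nonclassical monocyte-like (12157.5) and migratory DC-like cells (14239.8) up to cDC1-like cells, and several upper neighbours lay close together. In the PBS library, cDC1-like cells had 19028.8 CPM, cDC2-like 17357.7 and classical monocyte-like 17261.3. The cDC2-like interval (17087.9 to 17630.6) covers the classical monocyte-like value, so counting error alone does not separate these neighbours. Macrophage-like (16072.4), alveolar macrophage-like (15692.8), NK cell-like (15571.2) and regulatory T cell-like cells (15451.1) followed, and the intervals of the last 3 overlap. CD4 T cell-like and CD8 T cell-like cells had 14605.2 and 14430.7 CPM, also with overlapping intervals.

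**Figure D1:**
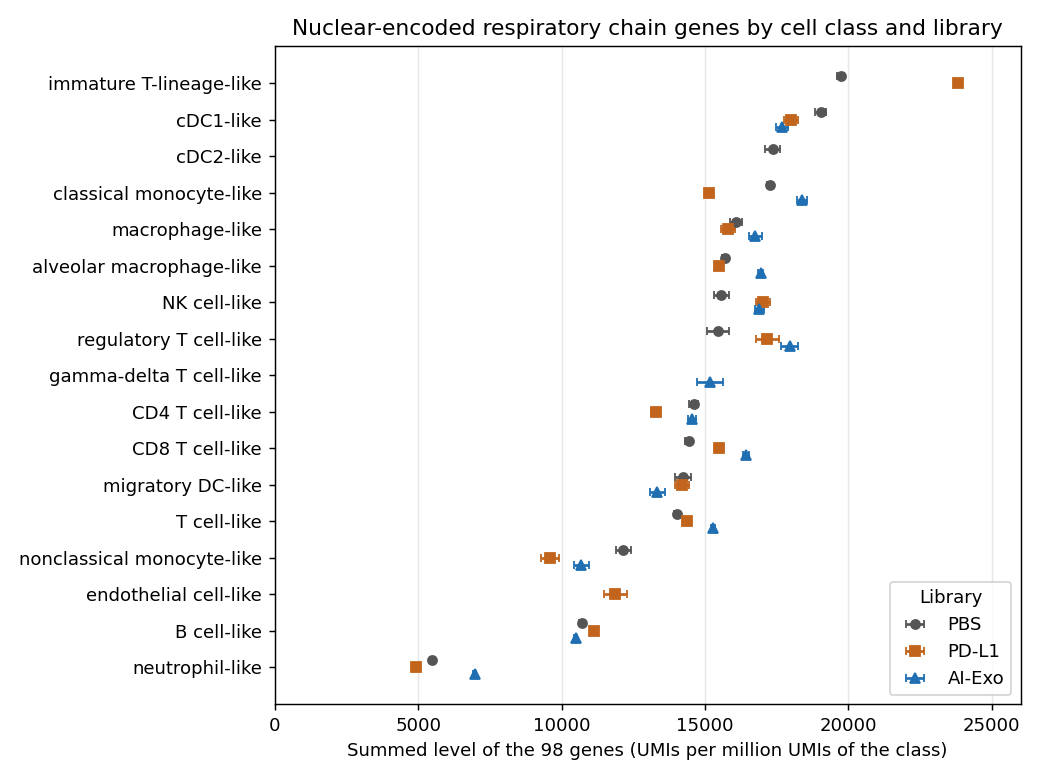
Summed level of the 98 nuclear-encoded respiratory chain genes (x axis, UMIs per 1000000 UMIs of the class) in each class with at least 50 barcodes in a library (y axis), 1 point for each library with its 95% exact Poisson interval for counting error. The 3 neutrophil-like points, from 4923.1 to 6970.2, lie left of every other class.

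In neutrophil-like cells the low level ran through all 5 complexes. Each gene was set against the median of the other classes compared in that library, and genes with a mean of at least 20 CPM over these values were tested on the scale of log2(CPM + 10). In PBS, 77 of 82 genes were lower by at least 1.5-fold, beside 39.8% of all genes. In PD-L1 this held for 77 of 81 genes, beside 45.2%, and in AI-Exo for 72 of 82, beside 37.8%. The median log2 ratio of the respiratory chain genes was -1.43 (PBS), -1.56 (PD-L1) and -1.05 (AI-Exo), and the medians of all genes were -0.32, -0.44 and -0.30. Of the 81 genes tested in all 3 libraries, 71 were lower by at least 1.5-fold in each of them, beside 33.9% of all genes. Of the same 81, 61 were lower in neutrophil-like cells than in every other compared class of every library, beside 26.7%. Several of the lower genes had neutrophil-like levels under 20 CPM and were tested through the level of the other classes alone. In PBS these include Ndufa9, at 7.38 against 40.4 CPM, and Ndufa10, at 11 against 63.5. The counts are therefore given as descriptions.

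Complex V stood lowest. Its median log2 ratio in neutrophil-like cells was -1.73 in PBS cells, -1.89 in PD-L1 cells and -1.50 in AI-Exo cells. Atp5g2, which encodes the membrane ring of the ATP synthase rotor, had 58.8, 40.9 and 88.5 CPM in the PBS, PD-L1 and AI-Exo neutrophil-like cells, against medians of 372.7, 339.0 and 353.7 in the other classes. Its log2 ratios of -2.48, -2.78 and -1.88 were the lowest of the tested genes in each library. Atp5h, a subunit of the ATP synthase stalk, had -1.84, -1.85 and -1.30, while Atp5l, a membrane subunit of the same enzyme, had -0.77, -0.81 and -0.74.

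Complex I, III and IV lay near each other, with PBS medians of -1.41, -1.51 and -1.44. Within complex I the 7 core subunits had a PBS median of -1.43, equal to that of the 29 accessory subunits. Uqcrb, a small subunit of complex III, had log2 ratios of -1.68, -2.11 and -0.99. Ndufb11, an accessory subunit of the membrane arm of complex I, had -1.44, -1.56 and -1.07. Cox4i1 had -1.50, -1.57 and -1.10, and Cox8a, the smallest subunit of cytochrome c oxidase, only -0.48, -0.50 and -0.45. Complex II, which belongs to the tricarboxylic acid cycle as well, had the least negative medians, at -1.02, -1.01 and -0.57, with Sdhb at -1.17, -1.13 and -1.08 and Sdhd at -0.88, -0.88 and -0.60.

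A few genes did not follow this order. Ndufaf7, an assembly factor that methylates a complex I core subunit, was the single tested gene above 0 in neutrophil-like cells in any library, with 33.5 CPM against 19 in PBS, 22.3 against 18.5 in PD-L1 and 28.7 against 18.4 in AI-Exo, or log2 ratios of 0.58, 0.18 and 0.45. The medians of the other compared classes were under 20 CPM. It therefore passed the limit on low genes through its neutrophil-like level alone and is given as a description. Atp5md, a small ATP synthase subunit, had log2 ratios of -0.32, -0.20 and -0.26, and Sdhaf2, which inserts the flavin into Sdha, had -0.50, -0.49 and -0.43. Ndufaf7, Atp5md and Sdhaf2 were picked after their values were seen.

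**Figure D2:**
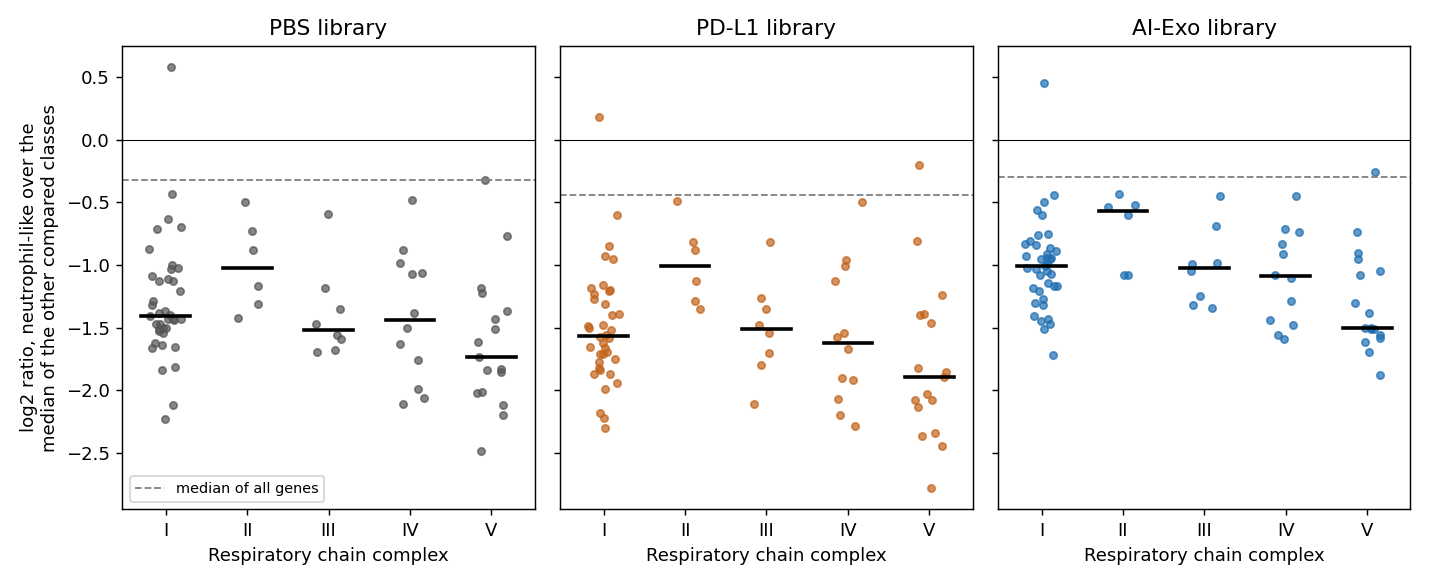
log2 ratio of each tested gene in neutrophil-like cells over the median of the other compared classes (y axis), by respiratory complex (x axis), 1 panel for each library. Points are genes, bars are medians of a complex and the dashed line is the median of all genes; in PBS the complex medians run from -1.73 to -1.02 and Ndufaf7 at 0.58 is the point above 0.

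Most other mitochondrial gene lists were also low in these cells, regulators of mitochondrial biogenesis less so, and ribosomal protein genes were lower still. The subunits encoded in the mitochondrial genome were also lower in neutrophil-like cells, with medians of -1.04, -0.87 and -0.87 in the 3 libraries and 11, 11 and 10 of them lower by at least 1.5-fold, of 12, 13 and 12 tested. The tricarboxylic acid cycle had medians of -0.86, -1.12 and -0.78, and mitochondrial ribosomal proteins -1.36, -1.49 and -1.11. The mitochondrial carriers and pores had -1.14, -1.35 and -0.67, and the protein import machinery -1.03, -1.15 and -1.03. Electron carriers and coenzyme Q synthesis had -0.95, -1.21 and -0.96, with 1 of 6 genes higher by at least 1.5-fold in each library. Regulators of mitochondrial biogenesis had -0.22, -0.80 and -0.43, with 1 of 6, 3 of 5 and 2 of 6 lower and 1 higher in each library. Cytosolic ribosomal proteins, which belong to no mitochondrial pathway, were lower still, at -2.33, -2.68 and -1.88, with 81 of 81 lower in each library. Glycolysis genes did not share the shift, with medians of 0.25, -0.19 and 0.28 and 0, 5 and 0 genes lower by at least 1.5-fold. Neutrophil-like barcodes were also shallower than most, with medians of 2533, 2799 and 3097 UMIs, and RNA in barcodes of at most 100 UMIs held 10720.9, 10829.9 and 9991.4 CPM of the respiratory chain genes, above the neutrophil-like level. The part of depth in the lower neutrophil-like levels was not tested.

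The AI-Exo neutrophil-like cells held more respiratory chain RNA than the PBS ones. The summed level was 6970.2 CPM against 5467.0, a ratio of 1.27 (1.26 to 1.29), and the mean was 34.4 UMIs of these genes for each barcode against 18.1. The medians were closer, 13 UMIs against 10 and 0.423% of the UMIs of a barcode against 0.394%. The median log2 ratio of the 71 tested genes was 0.34, where that of all genes was 0.03. Of the 71 genes, 66 lay above 0, beside 54% of all genes. All complexes lay above 1, with ratios of 1.28 for complex I, 1.17 for II, 1.33 for III, 1.26 for IV and 1.27 for V. It was broad and small in single genes: 8 of 71 were higher by at least 1.5-fold, beside 4.92% of all genes, and 0 were lower, beside 2.94%. Ndufa11, Ndufs8, Ndufb2 and Ndufc1, which are among the 71, passed the limit of 20 CPM through their AI-Exo level alone. Nothing is read from their direction, and Ndufa11 is among the 8.

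Among genes with a mean of at least 50 CPM, Uqcrb stood highest, at 56.4 CPM in PBS cells, 48.6 in PD-L1 cells and 92.5 in AI-Exo cells, a ratio of AI-Exo to PBS of 1.64 (1.42 to 1.90). Ndufb7, an accessory subunit of complex I, followed with 78.1, 79.9 and 124.5 CPM and a ratio of 1.60 (1.41 to 1.81). For both genes the AI-Exo value stood apart from the other libraries. Ndufa6 and Ndufa7, further accessory subunits, stood at the other end with log2 ratios of -0.06 and -0.04. The other higher genes were the accessory subunits Ndufb5, Ndufc2, Ndufs5, Ndufv3 and Ndufa11 and the gene Atp5o, named after their values were seen. Atp5o, a stalk subunit of ATP synthase, had 28.9 CPM in PBS, the same in PD-L1 and 55 in AI-Exo.

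Several other measures moved with this difference. Immature neutrophil granule genes (Camp, Ngp, Ltf, Fcnb, Elane, Mpo, Prtn3 and Chil3) were 3.36 times as high in AI-Exo as in PBS, at 11416.5 against 3395.4 CPM. They are not particular to these cells, and Chil3 is also a marker of classical monocyte-like cells. In PBS, alveolar macrophage-like cells held 9334.8 CPM of them and classical monocyte-like cells 3682.5. The share of neutrophil-like barcodes with at least 2 of the 8 genes was 13.3% in AI-Exo, 5.03% in PBS and 4.94% in PD-L1. These barcodes held 9273.0 CPM of respiratory chain genes in AI-Exo, 7961.4 in PBS and 7264.6 in PD-L1. The remaining neutrophil-like barcodes held 5930.9, 5169.6 and 4630.8 CPM, so AI-Exo stood highest in both subsets. Without the immature barcodes the ratio was 1.15, the median 0.20 and 2 genes were higher by at least 1.5-fold. Barcodes with at least 2 dividing-cell markers made up 2.97%, 1.33% and 0.675% of the AI-Exo, PBS and PD-L1 neutrophil-like cells, and without them the ratio was 1.17, the median 0.21 and the count 1. The share of all genes past 1.5-fold was not recorded beside these recomputed counts. The mitochondrially encoded subunits were 1.13 times as high, cytosolic ribosomal proteins 1.21 times and glycolysis genes 0.998 times.

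The PD-L1 neutrophil-like cells lay about as far below PBS in respiratory chain genes as in genes of all kinds. Their summed level was 4923.1 CPM against 5467.0 in PBS, a ratio of 0.901 (0.886 to 0.915), and the gene median was -0.15 beside a median of all genes of -0.14. Relative to all genes it was -0.02, and 17 of 71 genes lay above 0, beside 32.1% of all genes. Of 71 genes, 1 was lower by at least 1.5-fold, beside 4.69% of all genes, and 0 were higher, beside 3.79%. The 1 gene was Ndufb10, an accessory subunit of complex I, at 25.6 CPM against 46.7, and it was picked after its values were seen. Among better measured genes Atp5a1, the alpha subunit of the ATP synthase head, had a log2 ratio of -0.55 and Atp5md one of 0.31. In the same cells the mitochondrially encoded subunits had a ratio of 1.2 and glycolysis genes one of 0.698, with 8 of 15 lower by at least 1.5-fold and Ldha, which makes lactate, at -1.06.

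Set directly against each other, AI-Exo and PD-L1 neutrophil-like cells differed by a ratio of 1.42 (1.40 to 1.44), with 69 of 71 genes above 0 beside 67.7% of all genes. Here 24 of 71 genes were higher in AI-Exo by at least 1.5-fold, beside 8.51% of all genes. Ndufa11 and Ndufs8, which passed the limit of 20 CPM through their AI-Exo level alone, are among the 24. Cox5a, a nuclear subunit of cytochrome c oxidase, had 191.7 CPM in AI-Exo, 92.5 in PD-L1 and 125.2 in PBS. Ndufa4 had 136.6, 65.3 and 95.7 CPM in the same order, so in both genes PBS lay between the treated libraries.

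**Figure D3:**
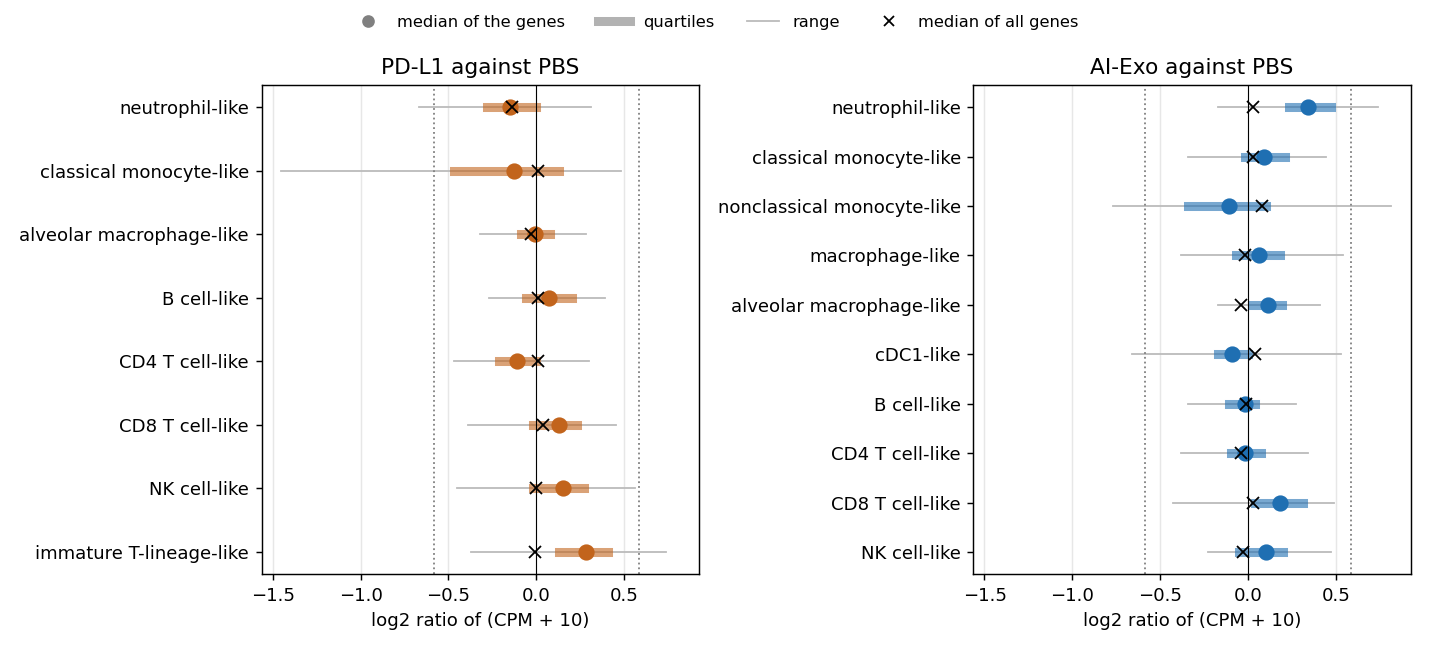
log2 ratio of CPM + 10 between libraries (x axis) for the tested respiratory chain genes of each compared class (y axis), PD-L1 against PBS on the left and AI-Exo against PBS on the right. Dots are medians of the genes, thick bars quartiles, thin lines the range, crosses the median of all genes and dotted lines a 1.5-fold difference; the AI-Exo neutrophil-like median of 0.34 stands right of its cross at 0.03.

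Classical monocyte-like cells of the PD-L1 library had less respiratory chain RNA than those of PBS, and the difference was uneven. The summed level was 15149.3 CPM against 17261.3, a ratio of 0.878 (0.869 to 0.887), with a gene median of -0.13 where all genes had 0.01. Of 84 genes, 34 lay above 0, beside 50.5% of all genes. Of the same 84, 13 were lower by at least 1.5-fold, beside 8.73% of all genes, and 0 were higher, beside 11.1%. Complex V, with 17 listed genes, held 5 of the 13, and complex I, with 45 listed genes, held 4. The lower genes were therefore a larger share of complex V than of complex I. These sizes count listed genes, whether tested in this class or not. By complex the ratios were 0.763 for II, 0.841 for V, 0.854 for IV, 0.908 for III and 0.935 for I.

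Cox7a2l, a factor that joins complexes III and IV into supercomplexes, stood lowest. It had 351.3 CPM in PBS cells, 122.2 in PD-L1 cells and 280.2 in AI-Exo cells, with a PD-L1 to PBS ratio of 0.348 (0.312 to 0.388). Atp5b, the catalytic beta subunit of ATP synthase, had 259.5, 127.5 and 257.3 CPM in the same order, a ratio of 0.491 (0.440 to 0.548). In both genes the PD-L1 value stood apart and the AI-Exo value lay nearer to PBS. Among the other lower genes, named after their values were seen, were Atp5c1, Atp5f1, Atp5g2 and Atp5a1 of complex V, Ndufb5, Ndufa8 and Ndufb11 of complex I, Sdha and Sdhd of complex II and Uqcrc2 of complex III. The log2 ratios of those named ran from -0.94 for Atp5c1 to -0.65 for Ndufb11. Ndufa5, an accessory subunit of complex I, and Atp5k, a membrane subunit of ATP synthase, lay at the other end with log2 ratios of 0.48 (71.7 against 48.4 CPM) and 0.47 (173.5 against 122.7).

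Other measures moved in the same cells. The subunits of the mitochondrial genome went the other way, with a ratio of 1.43, 12 of 12 tested genes above 0 and 3 higher by at least 1.5-fold, led by mt-Cytb at 0.76. Cytosolic ribosomal proteins had a ratio of 0.689 with 35 of 82 lower, and the mitochondrial carriers and pores 0.662 with 4 of 8 lower, among them the ADP/ATP carrier Slc25a5 at -0.79. Chil3, which is also 1 of the markers of this class, stood at -3.24. Median UMIs were 4939 in PD-L1 against 8114 in PBS, and 28.6% of PD-L1 but 17% of PBS barcodes had more than 1.5% of their UMIs in the nuclear RNA Malat1. Without such barcodes the ratio was 0.958 and 7 genes were lower by at least 1.5-fold, while Cox7a2l remained at 141.1 CPM against 369.3. Leaving out the 5% of barcodes with most UMIs gave a count of 21. The share of all genes past 1.5-fold was not recorded for these barcode sets, so nothing is read from the counts of 7 and 21.

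The 13 lower genes had longer transcripts, with a median of 1102.5 bases against 637.0 for the other genes. Across the 83 tested genes with a length, Spearman's rho between length and log2 ratio was -0.39, whereas across 5176 genes of all kinds it was 0.26. Both are descriptions across genes of the same 2 libraries, which are not independent points, and lengths were looked at after the ratios were seen. The part of length, depth and nuclear RNA in the difference was not tested.

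Classical monocyte-like cells of the AI-Exo library lay close to PBS. The ratio was 1.06 (1.05 to 1.08), the gene median 0.09, and 57 of 84 genes lay above 0, beside 53.4% of all genes. Here 0 of 84 genes were past 1.5-fold in either direction, beside 5.15% of all genes higher and 3.6% lower. Among genes with a mean of at least 50 CPM, Cox8a had the highest log2 ratio, 0.43 (749.8 against 552.4 CPM), and Cox7a2l the lowest, -0.32. Dividing barcodes were 13.6% of these cells against 3.62% in PBS, and without them the ratio was 1.02. Against PD-L1 the AI-Exo cells had a ratio of 1.21, with 12 of 84 genes higher by at least 1.5-fold beside 5.94% of all genes. Barcodes over 1.5% Malat1 were 4.53% of the AI-Exo and 28.6% of the PD-L1 cells, and within that limit the levels were 18639.3 and 17199.9 CPM.

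Cox7a2l was also among the 2 lowest of the better measured genes in CD8 T cell-like cells of both contrasts with PBS and in PD-L1 immature T-lineage-like and B cell-like cells. In CD8 T cell-like cells it had 508.1 CPM in PBS cells, 385.8 in PD-L1 cells and 373.7 in AI-Exo cells, ratios to PBS of 0.759 (0.703 to 0.819) and 0.736 (0.687 to 0.787). In immature T-lineage-like cells it had 470.8 CPM in PBS and 361.8 in PD-L1. These differences were smaller than in classical monocyte-like cells and did not reach 1.5-fold.

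In nonclassical monocyte-like cells Cox7a2l had 370.1 CPM in PBS cells, 143.2 in PD-L1 cells and 236.0 in AI-Exo cells, on 280, 50 and 143 UMIs. In endothelial-like cells, with 17, 70 and 40 barcodes, it had 479.5 (358.1 to 628.8), 208.5 (160.2 to 266.7) and 246.0 (178.8 to 330.3). The 3 libraries lay closer together in CD4 T cell-like and alveolar macrophage-like cells. In CD4 T cell-like cells it had 456.9, 435.8 and 435.5 CPM and in alveolar macrophage-like cells 248.0, 238.5 and 234.9. In B cell-like cells it had 383.4, 316.5 and 393.4, so that AI-Exo lay above PBS and PD-L1 below it.

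Barcodes with at least 2 dividing-cell markers held more respiratory chain RNA than the others of their class, beyond the counting intervals in most classes and libraries. In CD8 T cell-like cells they had 20827.9 CPM in PBS cells, 21120.7 in PD-L1 cells and 20486.7 in AI-Exo cells, against 13859.9, 14300.6 and 14450.1 in the rest. In B cell-like cells the pairs were 17448.9 against 10313.3, 20005.5 against 10604.5 and 17253.1 against 10144.1. The difference was small in alveolar macrophage-like cells, with 16111.9 against 15588.5 CPM in PBS, 15907.3 against 15356.6 in PD-L1 and 16998.4 against 16907.7 in AI-Exo, where the intervals overlap.

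**Figure D4:**
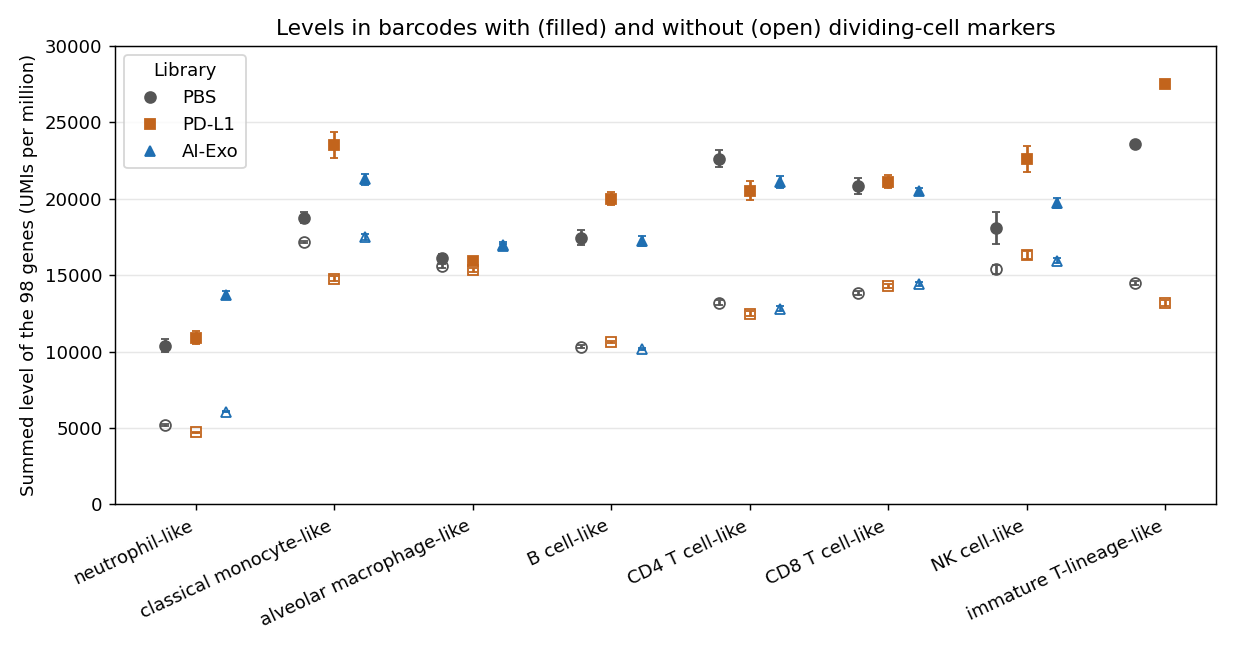
Summed level of the 98 genes (y axis, UMIs per 1000000 UMIs) in barcodes with at least 2 dividing-cell markers (filled) and the others (open) of each class (x axis), with 95% exact Poisson intervals for counting error, 1 symbol for each library. In CD8 T cell-like cells the filled points lie between 20486.7 and 21120.7 and the open points between 13859.9 and 14450.1.

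CD8 T cell-like cells of the AI-Exo library had a summed level of 16427.0 CPM against 14430.7 in PBS, a ratio of 1.14 (1.13 to 1.15). The gene median was 0.18 and 71 of 85 genes lay above 0, beside 54.2% of all genes. None was past 1.5-fold, with 0 higher beside 3.21% of all genes and 0 lower beside 2.44%. Cox5a had the highest log2 ratio at 0.49, with 304.9 CPM in PBS cells, 321.1 in PD-L1 cells and 433.5 in AI-Exo cells. Dividing barcodes were 16.7% of the AI-Exo cells, 8.19% of PD-L1 and 3.65% of PBS, and without them the AI-Exo to PBS ratio was 1.04 with a gene median of 0.05. Glycolysis genes had a ratio of 1.33 and the mitochondrially encoded subunits one of 0.955. PD-L1 against PBS gave a ratio of 1.07 and a gene median of 0.13, with 62 of 85 genes above 0 beside 58% of all genes. It had 0 genes past 1.5-fold beside 2.16% of all genes higher and 0.898% lower, and Ndufs5, an accessory subunit of complex I, at 0.45.

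Immature T-lineage-like cells, present in PBS and PD-L1, differed more. The PD-L1 level was 23819.3 CPM against 19725.7, a ratio of 1.21 (1.2 to 1.22), with a gene median of 0.28 and 80 of 86 genes above 0, beside 48.6% of all genes. Of the 86, 5 were higher by at least 1.5-fold, beside 2.16% of all genes, and 0 were lower, beside 2.32%. The 5 were Ndufs5 (218.5 against 126.7 CPM, log2 ratio 0.74), Ndufaf4, an assembly factor (0.74), Ndufa5 (0.62), Atp5g1, which encodes the same ring protein as Atp5g2 (0.61), and Ndufab1, the mitochondrial acyl carrier protein (0.60). Ndufaf4, Atp5g1 and Ndufab1 were named after their values were seen.

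The direction of this difference depended on dividing barcodes. Dividing barcodes were 36.3% of these cells in PD-L1 against 29% in PBS. Within the dividing barcodes the PD-L1 level was the higher one, 27498.4 against 23588.6 CPM, and within the others it was the lower one, 13177.9 against 14486.6. Without dividing barcodes the ratio was 0.91, the gene median -0.09 and the count 0, for which no share of all genes was recorded. The mitochondrially encoded subunits had a ratio of 0.823, and mitochondrial ribosomal proteins one of 1.23.

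Several other compared classes had 0 genes past 1.5-fold. PD-L1 against PBS gave 0.986 in alveolar macrophage-like cells, 1.04 in B cell-like, 0.909 in CD4 T cell-like and 1.09 in NK cell-like cells. In these 4 classes 0 respiratory chain genes were past 1.5-fold in either direction. Of all genes, 0.762%, 0.713%, 2.44% and 3.47% were higher in the same order, and 0.26%, 0.66%, 2.82% and 3.31% lower. Above 0 lay 41 of 83 alveolar macrophage-like (beside 42.6% of all genes), 53 of 84 B cell-like (52%), 22 of 85 CD4 T cell-like (51.1%) and 60 of 85 NK cell-like values (50.7%). Ndufb8, an accessory subunit of complex I, had the lowest value in CD4 T cell-like cells at -0.47, and Uqcrb the highest in NK cell-like cells at 0.56 (239.1 against 159.5 CPM). AI-Exo against PBS gave 1.08 in alveolar macrophage-like, 0.979 in B cell-like, 0.997 in CD4 T cell-like, 1.09 in NK cell-like and 1.04 in macrophage-like cells, with 0 respiratory chain genes past 1.5-fold in each. Of all genes, 1.46%, 0.196%, 1.46%, 2.69% and 4.9% were higher in the same order, and 1.21%, 1.05%, 2.2%, 3.2% and 6.01% lower. Above 0 lay 66 of 83 alveolar macrophage-like (beside 43.2% of all genes), 30 of 84 B cell-like (47.9%), 39 of 85 CD4 T cell-like (42.2%), 59 of 85 NK cell-like (45%) and 53 of 83 macrophage-like values (47.1%). The macrophage-like value rested on 106 and 121 barcodes and was 0.948 without dividing barcodes.

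Nonclassical monocyte-like and cDC1-like cells lay below 1. AI-Exo nonclassical monocyte-like cells had 10691.7 CPM against 12157.5 in PBS, a ratio of 0.879 (0.852 to 0.908). Barcodes over 1.5% Malat1 were 53.6% of the AI-Exo and 42.9% of the PBS cells, and without them the ratio was 0.961, with 5 genes higher and 4 lower. The share of all genes was not recorded without these barcodes, so nothing is read from these counts. Of 81 genes, 28 lay above 0, beside 55.9% of all genes. Of the same 81, 7 were lower by at least 1.5-fold, beside 8.56% of all genes, and 2 were higher, beside 16%. Atp5o (59.4 against 108.4 CPM) and Ndufa8, an accessory subunit of complex I (51.2 against 91.2), had the lowest log2 ratios, -0.77 and -0.73. The 2 higher genes, the core subunit Ndufs1 and the complex II assembly factor Sdhaf1, had 28.1 against 14.5 and 72.6 against 37 CPM, and were named after their values were seen. The counting interval of the Ndufs1 ratio, 0.853 to 4.56, covers 1. Ndufs1 had 20 CPM in PD-L1, on 7 UMIs, so only its AI-Exo level lay clearly above the limit of 20 CPM. Its PBS and PD-L1 levels without AI-Exo would not have passed this limit, so nothing is read from its direction. In cDC1-like cells the ratio was 0.93 and 23 of 85 genes lay above 0, beside 55.4% of all genes. Of the 85, 1 was lower by at least 1.5-fold, beside 1.29% of all genes, and 0 were higher, beside 4.68%. That gene was Ndufaf6, an assembly factor of complex I, at 16 CPM against 31.1, named after its values were seen. It passed the limit of 20 CPM through its PBS level alone, so nothing is read from this count. These classes had 105 to 147 barcodes in a library.

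Several subunits of complex IV exist as a common form and a form restricted to some tissues. Of the restricted forms, Cox6b2 had most UMIs, 2235 over all kept barcodes, followed by Cox6a2 with 461, Cox7a1 with 300, Cox4i2 with 191 and Ndufa4l2 with 190. Cox8b had 3 UMIs, and Cox7b2 and Cox8c had 0. Cox6b2, known from testis, replaces Cox6b1, which clamps the dimer of cytochrome c oxidase.

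Cox6b2 was highest in alveolar macrophage-like cells of each library. There it had 53.9 CPM (47.3 to 61.2) in PBS cells, 48.1 (42.5 to 54.3) in PD-L1 cells and 46.8 (42.2 to 51.7) in AI-Exo cells, and the 3 intervals overlap. It made up 10.9%, 10.2% and 9.65% of the pair with Cox6b1, whose levels were 439.6, 422.5 and 438.1 CPM. UMIs of Cox6b2 were found in 35.8%, 32.8% and 36% of these barcodes, whose median depths were 10396.5, 11750 and 13133 UMIs. In B cell-like cells, with median depths of 3267.5, 3654.5 and 3848, the shares were 0.668%, 0.996% and 0.4% and the levels 1.86, 2.41 and 1.05 CPM. RNA in barcodes of at most 100 UMIs held 15.2, 7.62 and 8.79 CPM.

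Immature T-lineage-like cells had 29.3 CPM of Cox6b2 in PBS and 22.4 in PD-L1, while T cell-like cells had 3.55, 2.02 and 1.42. The cDC2-like cells of PBS, on 77 barcodes, had 31.9 CPM (21.4 to 45.8), and cDC1-like cells 5.01, 6.96 and 6.16. The 47 cDC2-like barcodes of PD-L1 gave 16.8 CPM (7.69 to 31.9). The 28 of AI-Exo gave 33.4 CPM (18.3 to 56.0), an interval that overlaps the alveolar macrophage-like one. Classical monocyte-like cells had 15.4, 10.2 and 14, close to the level in near-empty barcodes, and macrophage-like cells 10.1, 9.58 and 3.04. The level in alveolar macrophage-like cells was therefore above that in the other macrophage-like class in each library, with intervals that do not overlap.

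**Figure D5:**
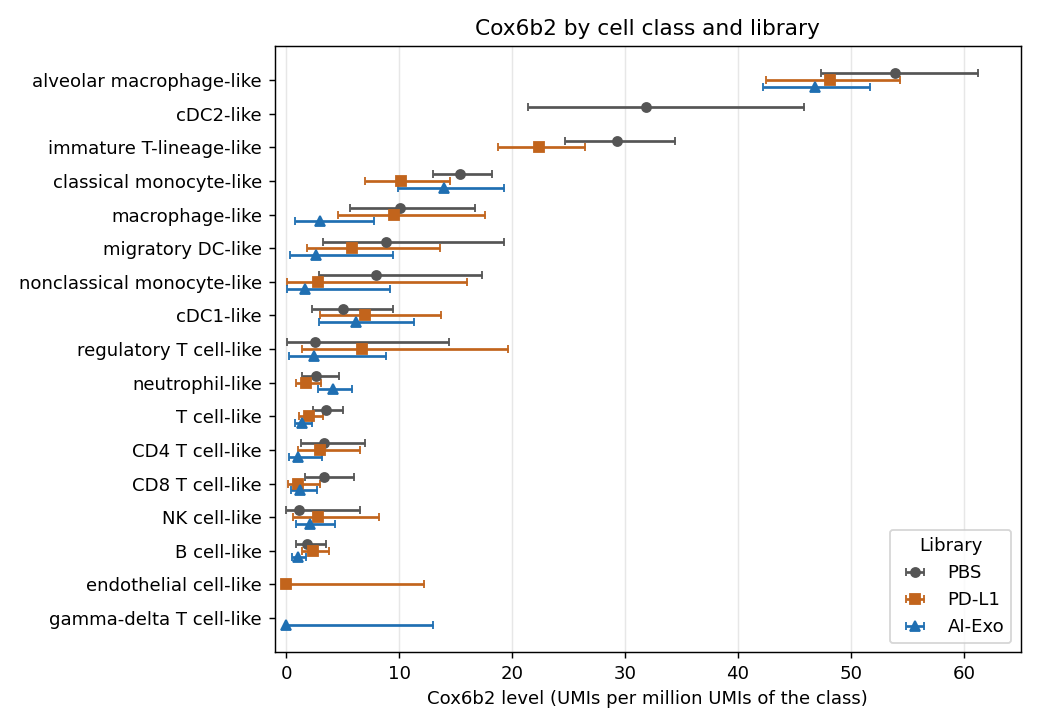
Cox6b2 level (x axis, UMIs per 1000000 UMIs of the class) in each class with at least 50 barcodes in a library (y axis), 1 point for each library with its 95% exact Poisson interval for counting error. Alveolar macrophage-like cells lie between 46.8 and 53.9 in all 3 libraries, and B cell-like cells between 1.05 and 2.41.

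Cox6a2, the form known from heart and skeletal muscle, appeared in pDC-like cells. The class had 7 PBS, 7 PD-L1 and 11 AI-Exo barcodes, with Siglech and Klk1 among its leading genes, and was looked at after its values were seen. Cox6a2 had 17, 102 and 74 UMIs there, in 6, 7 and 10 barcodes, or 367.4 CPM (214.0 to 588.3), 1675.6 (1366.3 to 2034.1) and 910.5 (714.9 to 1143.0). The 193 UMIs in pDC-like cells were drawn from 461 over all kept barcodes. It made up 81%, 95.3% and 80.4% of the pair with Cox6a1. Near-empty barcodes held 0.583, 1.91 and 1.55 CPM. Cox4i2 and Ndufa4l2 are known to respond to low oxygen. In endothelial-like cells of PD-L1, Cox4i2 had 59.6 CPM (18 UMIs in 5 of 70 barcodes), against 11.2 in those of AI-Exo and 18.4 in those of PBS, on 2 UMIs each. In plasma cell-like cells it had 37.9 CPM in PBS (24 UMIs in 6 of 33 barcodes), 27.1 in PD-L1 and 4.72 in AI-Exo. Ndufa4l2 had 36.4 CPM in endothelial-like cells of PD-L1 and 61.5 in those of AI-Exo, on 11 UMIs each, and 0 UMIs in the 17 barcodes of PBS.

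Promoter sequence was set beside these patterns because the common subunits share transcription factors. NRF1 and the ETS factor GABP are textbook regulators of respiratory chain genes. RefSeq promoters on GRCm38.p6 were found for 79 of the 98 genes, and the 250 bases before each start were searched on both strands, beside 27025 genes in all. The NRF1 consensus, a pattern of 10 letters with 1 free base, was present in 13 of 79 promoters (16.5%) and in 3.86% of all genes. The ETS pattern CCGGAAG was present in 15 of 79 (19%) and in 7.05% of all genes. The SP1 pattern GGGCGG was found in 43% against 32.9%, CCAAT in 44.3% against 34.5%, the ERR pattern TCAAGGTCA in 1 of 79 (1.3%) against 0.366%, and the YY1 consensus of 11 letters in 0 of 79 against 0.218%. Matches of different patterns may share bases, and a promoter can be counted under several. Either NRF1 or ETS was found in 12 of 39 promoters of complex I, 4 of 7 of complex II, 2 of 5 of complex III, 2 of 14 of complex IV and 5 of 14 of complex V. Atp5h, Cox6a1 and Sdhd held both.

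The sequences show a promoter with both patterns, 1 with ETS alone and 1 with neither. The promoters of Cox6a1, of Cox6b1 and of its restricted partner Cox6b2 are shown from the first to the last of the 250 bases before the start, 5′ to 3′ on the gene's strand, with NRF1 and ETS matches in capitals. They lie on the minus strand of GRCm38.p6, Cox6a1 at chr5:115348959-115349208, Cox6b1 at chr7:30626115-30626364 and Cox6b2 at chr7:4753095-4753344.
Cox6a1: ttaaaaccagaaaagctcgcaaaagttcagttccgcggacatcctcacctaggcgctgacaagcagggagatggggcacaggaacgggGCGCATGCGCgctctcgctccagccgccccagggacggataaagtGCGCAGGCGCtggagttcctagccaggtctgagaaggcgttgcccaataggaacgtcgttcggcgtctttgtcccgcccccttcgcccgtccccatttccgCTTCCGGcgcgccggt
Cox6b1: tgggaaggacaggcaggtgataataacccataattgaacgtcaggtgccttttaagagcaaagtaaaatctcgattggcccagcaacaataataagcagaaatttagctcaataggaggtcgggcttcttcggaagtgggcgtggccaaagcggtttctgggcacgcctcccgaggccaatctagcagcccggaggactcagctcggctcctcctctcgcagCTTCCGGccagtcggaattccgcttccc
Cox6b2: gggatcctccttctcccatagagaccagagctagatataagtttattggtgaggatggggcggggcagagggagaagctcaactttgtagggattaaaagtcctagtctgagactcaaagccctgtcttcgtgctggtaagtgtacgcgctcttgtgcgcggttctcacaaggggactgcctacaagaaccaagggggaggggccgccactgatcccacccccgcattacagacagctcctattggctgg
Cox6a1 had NRF1 matches 162 to 153 and 117 to 108 bases before the start and an ETS match, as reverse complement, 16 to 10 bases before it. Cox6b1 had an ETS match, as reverse complement, 28 to 22 bases before the start. The Cox6b2 window held none of the NRF1, ETS, YY1 and ERR letters, which says only that these letters are not in these bases. The GC content was 62.8%, 54% and 54.8%.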

How the data were processed

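The authors deposited raw UMI counts per gene and barcode for each of the 3 libraries, made with 10x Chromium 3′ v3.1 chemistry. The file header names Cell Ranger 7.1.0 and the submitters' processing notes name Cell Ranger 3.0.2. The genome build used for counting: not given in the sources used here.

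Barcodes with at least 500 UMIs, at least 200 genes and at most 20% mt- UMIs were kept, with 64594803, 61813852 and 72142040 UMIs in the PBS, PD-L1 and AI-Exo libraries. A barcode joined a class with at least 3 of its markers (2 for immature T-lineage-like cells), more than of any other class of its lineage, and at most 1 marker of another lineage, or at most 1 for each 3 of its own. T cell-like, immature T-lineage-like and gamma-delta T cell-like cells needed no lead over each other, but the first and last held no immature T-lineage marker. T cell-like barcodes also held fewer than 3 gamma-delta T cell markers. For immature T-lineage-like barcodes the larger of the immature and T cell marker counts was set against other classes. Markers shared between lineages did not count against other lineages. This gate also removes barcodes of mixed lineages, and no doublet caller was run. UMIs were summed per class and library and scaled to CPM here.  Classes with at least 100 barcodes in both libraries of a contrast were compared, on log2(CPM + 10), over genes averaging 20 CPM or more, and genes past 1.5-fold were counted. The neutrophil-like comparison within PD-L1 also used nonclassical monocyte-like, macrophage-like and cDC1-like cells, with 82, 98 and 84 barcodes there. RNA outside cells was read from barcodes with at most 100 UMIs. Intervals are exact Poisson (levels) or conditional binomial (ratios) at 95%. They cover counting error only, since there is 1 library per group and therefore no replicate.

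Named genes are the 2 with most UMIs in each complex, the 2 highest and 2 lowest per class and contrast among those with a mean of at least 50 CPM, the restricted isoforms, and the ends of each list. The genes and lists were chosen with earlier results of these data known. The steps were tested on simulated data. Alternatives changed the filters, gate, denominator, pseudocount, centring and the barcodes included, and 2 of them (Malat1 and immature granule genes) were chosen after seeing the data. Promoter sequences come from RefSeq on GRCm38.p6. Python 3.11.15, numpy 2.4.6, scipy 1.17.1, pandas 2.3.3 and matplotlib 3.10.9 were used.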

Additional observations from a re-analysis of the deposited data

How the results depend on the processing

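No paired analysis was possible because each group has 1 library, and for the same reason no library could be left out. The neutrophil-like level stayed the lowest of the classes under every alternative. Of 472 recomputed counts of genes past 1.5-fold, 49 moved by over 1.5 times. The share of all genes was not recorded beside the recomputed counts, so they are not set against a background. Of 236 medians 16 moved and 2 reversed, and of 182 summed ratios 50 moved and 3 reversed. Log2 ratios of named genes were recomputed only with the changed denominator, with free RNA subtracted and with the changed pseudocount. These 216 values stayed within their counting intervals. Named genes were not recomputed under changes of the gate or of the barcodes included. Limits of at least 1000 UMIs or at most 10% mt- UMIs moved none of the counts, medians and summed ratios. For summed ratios and for neutrophil-like levels over the median class, a move here means beyond counting error. For counts it means a change of over 1.5 times, which takes no account of counting error. For medians it means leaving an interval set by the spread of the genes, which is not counting error. The cause of the moves was not tested. The moved values follow, as contrasts with PBS. The neutrophil-like level over the median class is given for PBS, PD-L1 and AI-Exo.

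Asking for 1 more marker in the gate gave a neutrophil-like level of 0.316 in PD-L1 and 0.430 in AI-Exo. For PD-L1 it gave a lower count of 2 in neutrophil-like cells, a ratio of 0.905 in classical monocyte-like cells and a higher count of 2 in NK cell-like cells. For AI-Exo it gave a ratio of 1.07 in alveolar macrophage-like and a higher count of 1 in cDC1-like cells.

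Without the 5% of barcodes with most UMIs the neutrophil-like level was 0.310, 0.289 and 0.358. For PD-L1 the ratios were 0.945 in neutrophil-like (lower count 0), 0.833 in classical monocyte-like (lower count 21), 1.02 in B cell-like, 0.944 in CD4 T cell-like (median -0.06), 1.05 in CD8 T cell-like and 1.23 in immature T-lineage-like cells (higher count 9), with a higher count of 2 in NK cell-like cells. For AI-Exo they were 1.25 in neutrophil-like (higher count 4), 1.03 in classical monocyte-like, 1.02 in macrophage-like, 0.953 in cDC1-like (median -0.04), 0.993 in B cell-like and 1.13 in CD8 T cell-like cells, with a lower count of 11 in nonclassical monocyte-like cells.

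Without dividing barcodes the neutrophil-like level was 0.362, 0.330 and 0.420. For PD-L1 the ratio reversed to 0.910 in immature T-lineage-like cells (median -0.09, higher count 0). It was 0.861 in classical monocyte-like, 0.945 in CD4 T cell-like (median -0.06), 1.03 in CD8 T cell-like and 1.06 in NK cell-like cells (median 0.06, higher count 1). For AI-Exo it reversed to 0.948 in macrophage-like cells (median -0.05, lower count 1). It was 1.17 in neutrophil-like (median 0.21, higher count 1), 1.02 in classical monocyte-like (median 0.03, lower count 1), 0.971 in CD4 T cell-like, 1.04 in CD8 T cell-like (median 0.05) and 1.04 in NK cell-like cells (median 0.02).

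With mt- and cytosolic ribosomal protein genes out of the denominator the neutrophil-like level was 0.298, 0.284 and 0.372. For PD-L1 the ratio was 0.839 in classical monocyte-like and 1.04 in CD8 T cell-like cells, and the higher count 1 in NK cell-like cells. For AI-Exo it was 0.888 in cDC1-like (median -0.16) and 1.09 in CD8 T cell-like cells (median 0.13), with a lower count of 1 in macrophage-like and a higher count of 1 in NK cell-like cells. With free RNA subtracted the neutrophil-like level was 0.344, 0.315 and 0.431, and the PD-L1 lower count 2. With structural subunits only, AI-Exo nonclassical monocyte-like cells had a higher count of 1 and cDC1-like cells a lower count of 0.

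With the mean of barcode shares the neutrophil-like level was 0.320, 0.308 and 0.340. For PD-L1 the ratios were 0.943 in neutrophil-like, 0.798 in classical monocyte-like, 0.953 in CD4 T cell-like and 1.12 in immature T-lineage-like cells. For AI-Exo they were 1.14 in neutrophil-like, 1.03 in classical monocyte-like, 1.10 in alveolar macrophage-like, 0.975 in cDC1-like, 1.01 in CD4 T cell-like, 1.10 in CD8 T cell-like and 1.05 in NK cell-like cells, and reversed to 1.0 in B cell-like cells.

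With a pseudocount of 1 CPM the PD-L1 counts were 3 lower in neutrophil-like and 9 higher in immature T-lineage-like cells. The AI-Exo counts were 14 higher in neutrophil-like, 11 lower in nonclassical monocyte-like, and 1 higher in each of classical monocyte-like, macrophage-like and cDC1-like cells. With no filter on low genes, NK cell-like cells had 1 higher gene in each contrast and AI-Exo macrophage-like cells 1 higher and 2 lower. With a mean of at least 50 CPM the PD-L1 neutrophil-like lower count was 0, and for AI-Exo the counts were 2 higher in neutrophil-like, 0 higher in nonclassical monocyte-like and 0 lower in cDC1-like cells. Centred on the median of all genes, PD-L1 neutrophil-like cells had a median of -0.02 and a lower count of 0, and immature T-lineage-like cells a higher count of 8. AI-Exo then had 5 higher in neutrophil-like, 1 higher and 12 lower in nonclassical monocyte-like cells, and a median of -0.12 in cDC1-like cells.

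The next alternatives were chosen after seeing the data. Without neutrophil-like barcodes that held 2 or more immature granule genes, the neutrophil-like level was 0.335, 0.306 and 0.374, and the AI-Exo ratio 1.15 (median 0.20, higher count 2). Without barcodes over 1.5% Malat1 it was 0.420, 0.40 and 0.521. For PD-L1 the ratios were then 0.935 in neutrophil-like (lower count 4), 0.958 in classical monocyte-like (lower count 7), 0.975 in alveolar macrophage-like, 1.10 in B cell-like (median 0.14, higher count 1), 1.15 in CD8 T cell-like (median 0.22), 1.13 in NK cell-like (higher count 3) and 1.23 in immature T-lineage-like cells (higher count 8). For AI-Exo they were 1.04 in classical monocyte-like, 0.961 in nonclassical monocyte-like (5 higher, 4 lower), 1.08 in macrophage-like (higher count 1) and 1.05 in alveolar macrophage-like cells (median 0.08).

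Classes with about 100 barcodes (macrophage-like, nonclassical monocyte-like and cDC1-like) limit single genes to a few UMIs, and counting intervals do not cover variation between animals.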
